A study of Drosophila melanogaster with 3 samples.

Results

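The peaks of the CG14050 protein on the X chromosome were taken from the conservative peak list of a chromatin immunoprecipitation sequencing (ChIP-seq) experiment in Drosophila melanogaster. They were chosen by position alone, as every peak of that list placed on the X arm, and number 691 of 3515 in all. Another 2811 peaks lie on the autosomal arms 2L, 2R, 3L, 3R and 4, which are the comparison used throughout, and 13 lie on scaffolds outside the arms. The experiment used whole embryos aged 0 to 24 hours from a line that carries CG14050 fused to enhanced green fluorescent protein (eGFP), and an anti-GFP antibody for the precipitation of sonicated chromatin of 200 to 800 bp. There were 3 biological replicates of this 1 group, and the labels do not say whether they came from separate collections. A replicate list holds 408, 495 and 449 X peaks in replicates 1, 2 and 3, of 2155, 2433 and 2282 peaks in all. The labels name an insertion that targets CG14050 without its position or extent, and the sex of the embryos was not recorded. The pooled embryos hold many tissues, so a weak peak in many cells and a strong peak in few cells cannot be told apart.

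The Drosophila X is carried as a single copy by males and as a pair by females. Males raise the output of their X through the dosage compensation complex, which contains the noncoding roX RNAs and spreads over transcribed genes. Promoters are the short regions around a transcription start site (TSS) where the polymerase is loaded, and introns of fly genes often hold enhancers and start sites of shorter transcripts. The labels give no function for CG14050, and none is assumed here.

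The sequences below are 101 bp windows centred on the summits of 7 of the 25 strongest X peaks, chosen to show promoter, intronic and noncoding-exon summits and the lowest and highest GC content among the 25, followed by the summit at CG14050 itself. They are read from the forward strand of the RefSeq Release 6 genome, the sequence behind the dm6 build of the peak lists. Capitals mark either TATAAA, the core of the TATA box, or ACAGTG, a word chosen with earlier results of these lists known, on either strand. Ugalt (chrX:2703847-2703947), the summit nearest to CG4004 (chrX:12751353-12751453) and moody (chrX:2050231-2050331) hold neither word. CG32772 (chrX:4910312-4910412), Gapdh2 (chrX:15867936-15868036) and CHES-1-like (chrX:7706943-7707043) hold TATAAA, and TRAM (chrX:935281-935381) holds ACAGTG. CG14050 (chrX:2325826-2325926) holds neither.
Ugalt: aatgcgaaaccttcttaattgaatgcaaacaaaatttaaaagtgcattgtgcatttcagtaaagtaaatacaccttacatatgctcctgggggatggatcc
CG32772: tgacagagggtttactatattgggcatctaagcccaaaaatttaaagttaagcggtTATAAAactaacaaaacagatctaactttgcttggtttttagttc
CG4004: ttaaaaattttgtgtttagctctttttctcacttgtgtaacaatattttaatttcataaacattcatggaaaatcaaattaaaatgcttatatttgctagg
TRAM: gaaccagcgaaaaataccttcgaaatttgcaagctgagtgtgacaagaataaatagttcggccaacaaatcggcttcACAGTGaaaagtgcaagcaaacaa
Gapdh2: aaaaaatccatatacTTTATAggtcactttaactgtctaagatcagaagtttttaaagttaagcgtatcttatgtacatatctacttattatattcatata
moody: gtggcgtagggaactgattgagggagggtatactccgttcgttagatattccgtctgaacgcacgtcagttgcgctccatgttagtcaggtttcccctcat
CHES-1-like: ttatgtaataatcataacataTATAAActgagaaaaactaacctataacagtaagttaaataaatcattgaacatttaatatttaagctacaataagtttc
CG14050: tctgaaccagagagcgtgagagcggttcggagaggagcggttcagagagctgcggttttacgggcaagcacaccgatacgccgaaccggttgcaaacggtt
GC content was 35.6% at Ugalt, 32.7% at CG32772, 22.8% at CG4004, 40.6% at TRAM, 23.8% at Gapdh2, 51.5% at moody and 19.8% at CHES-1-like, and 58.4% at CG14050. The median over the 25 strongest X summits was 30.7%, and the summit at the tagged gene was above all of them. Of the 25 windows 7 hold TATAAA and 2 hold ACAGTG.

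The strongest X peak belonged to the UDP-galactose transporter gene Ugalt, 45 bp from its TSS. Each peak has a signal, the authors' measure of height, whose scale is not given and which is comparable only within a list. Ugalt had a signal of 2009 in the conservative list, rank 2 in the whole list, and its overlapping replicate peaks had signals of 503.8, 786.9 and 734.1. Next came a summit 507 bp from a TSS of ph-p, inside an intron of this gene for a Polycomb group protein, with a signal of 1630 and replicate signals of 504.4, 574.2 and 570.9. A further ph-p summit, in its 5′ UTR and 489 bp from a TSS, had a signal of 752.6. CG32772 carried an intronic summit with a signal of 1362 and replicate signals of 366.8, 478.5 and 490.9. Each of these was found in every replicate.

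**Figure D1:**
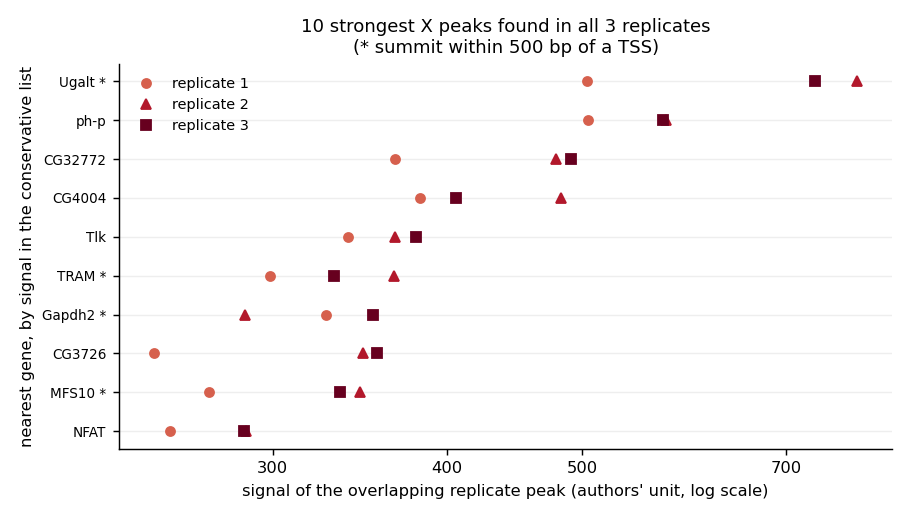
Signals in the 3 replicate lists (log axis, authors' unit, each replicate on its own scale) of the 10 strongest X peaks that overlap a peak in all 3 replicates, ordered from the top by signal in the conservative list and named by the nearest protein-coding gene. Ugalt and the first ph-p peak lie to the right of the other 8 in every replicate.

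The 25 strongest X peaks present in all 3 replicates had signals of 556.2 to 2009 in the conservative list. Of these, 12 lay within 500 bp of a protein-coding TSS, called promoter peaks here, and 16 lay in introns. Promoter peaks besides Ugalt were at TRAM (translocon-associated membrane protein, signal 1007), Gapdh2 (glycolytic glyceraldehyde-3-phosphate dehydrogenase, 961.1), MFS10 (a membrane transporter of the major facilitator superfamily, 945.1) and Atf3 (a bZIP transcription factor, 751.2). Promoter peaks also lay at moody (a receptor of the blood-brain barrier, 678.5), elav (a neuronal RNA-binding protein, 579.2), CG3009 (570.0) and Ptpmeg2 (a protein tyrosine phosphatase, with peaks of 575.7 and 558.0). Only the peak in an intron of bves, with a signal of 631.4, faced start sites on both strands, those of bves and Stt3A. Intronic summits away from a TSS included those at Tlk (Tousled-like kinase, 1069), NFAT (a transcription factor, 824.1), norpA (phospholipase C of phototransduction, 788.2), CHES-1-like (a forkhead protein, 620.9) and LPCAT (a lysophospholipid acyltransferase, 556.2). The genes range from housekeeping enzymes to regulators, and no shared function is read from them.

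Among X summits over 5 kb from a protein-coding TSS, the strongest lay in an exon of the noncoding RNA gene lncRNA:Vinr, 5086 bp from the nearest coding start at CG4004, with a signal of 1252. It had replicate signals of 382.2, 482.9 and 406.2. A neighbour in lncRNA:CR44619 had a signal of 804.0. Both sit at annotated noncoding transcripts, so distance to a coding TSS does not make them distal to transcription. Next were an intronic Raf summit with a signal of 718.7, an intronic Hr4 summit 21996 bp from the nearest coding TSS with a signal of 518.1, and a summit in a 5′ UTR of baz with a signal of 510.2. Raf encodes a kinase of the MAP kinase pathway, Hr4 a nuclear receptor and baz a cell polarity scaffold. The Hr4 peak had replicate signals of 93.0, 165.9 and 253.3, each on the scale of its own list.

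The tagged gene is itself on the X, at chrX:2324748-2326217 on the reverse strand, within the bounds of Raf, which is on the forward strand. The nearest conservative summit lay 92 bp from its TSS, in its 5′ UTR, with a signal of 386.5 and replicate signals of 143.8, 58.1 and 161.6. Within 50 kb on either side of that TSS lay 13 X peaks, of which 12 were inside Raf. Of the 13, 11 were in all 3 replicate lists, beside 43.4% of all X peaks, and 11 were above the median X signal. This locus was singled out after its values were seen. It is among the densest stretches of the arm: the most in any 100 kb of X was 15.

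Regions of the ranked list that did not pass the threshold were also more frequent and higher there. They numbered 550 per Mb near CG14050 and 373 per Mb over the rest of X, with median signals of 32.2 and 26.8. In the replicate lists their density near CG14050 was 560, 410 and 450 per Mb, against 314, 290 and 272 per Mb over the rest of X. The tagged line carries an insertion that targets this gene, and the number of copies of the locus was not measured here, so its part in these peaks was not tested. Without the X regions within 50 kb, the promoter difference given below was -9.98 points and the ratio of median spacing 0.792, and the differences in introns, density, signal, pass rate and recurrence kept their direction.

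Fewer X peaks than autosomal peaks lay at promoters. In the conservative list 259 of 691 X peaks (37.5%, exact 95% interval 33.9 to 41.2%) and 1346 of 2811 autosomal peaks (47.9%, 46.0 to 49.7%) were promoter peaks, a difference of -10.4 percentage points (95% Newcombe interval -14.4 to -6.30). In replicates 1, 2 and 3 the share was 40.9%, 37.0% and 38.5% on X, against 49.97%, 49.6% and 51.4% on the autosomes. The groups do not overlap, and X lay below each of the large arms 2L, 2R, 3L and 3R, which ranged from 45.5 to 49.9% in the conservative list and from 47.6 to 54.0% in the replicates. The mean difference over replicates was -11.5 ± 2.13 points (SD, n = 3), with p = 0.25 by the exact two-sided sign-flip permutation test. With 3 replicates this test cannot go below 0.25, so no difference of this kind could pass 0.05, and a p of 0.25 says only that the 3 differences have 1 sign. Intervals over peaks cover counting error only.

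The lower share was not seen among the ranked regions that did not pass, of which 15.1% on X and 13.9% on autosomes lay within 500 bp of a TSS. Nor do X bases lie less often near a TSS by a similar margin: 11.0% of the X and 11.5% of the autosomal arms lie within that distance. Per Mb of such sequence, X had 99.9 promoter peaks and autosomes had 106. Away from promoters, X had 20.6 peaks per Mb and autosomes had 15.01, a ratio of 1.37. In the 3 replicates that ratio was 1.28, 1.497 and 1.45 (p = 0.25, exact sign-flip permutation test), against 0.940, 0.942 and 0.906 near a TSS. Counting all summits, promoter peaks included, X had more peaks per Mb of intron, described below. Between genes X had 27.9 peaks per Mb and autosomes had 33.1. The ratio between genes was 0.844, and 0.782, 0.850 and 0.803 in the replicates. Summits away from promoters were not split into introns and sequence between genes, so where their excess lies was not measured. Per Mb of whole arms, the lower promoter share on X therefore goes with more peaks away from promoters, and less with fewer peaks at them. Arm ends that hold no peak, such as that of 3L, were not taken off the sequence away from promoters, in introns or between genes. Their part in these ratios was not tested.

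**Figure D2:**
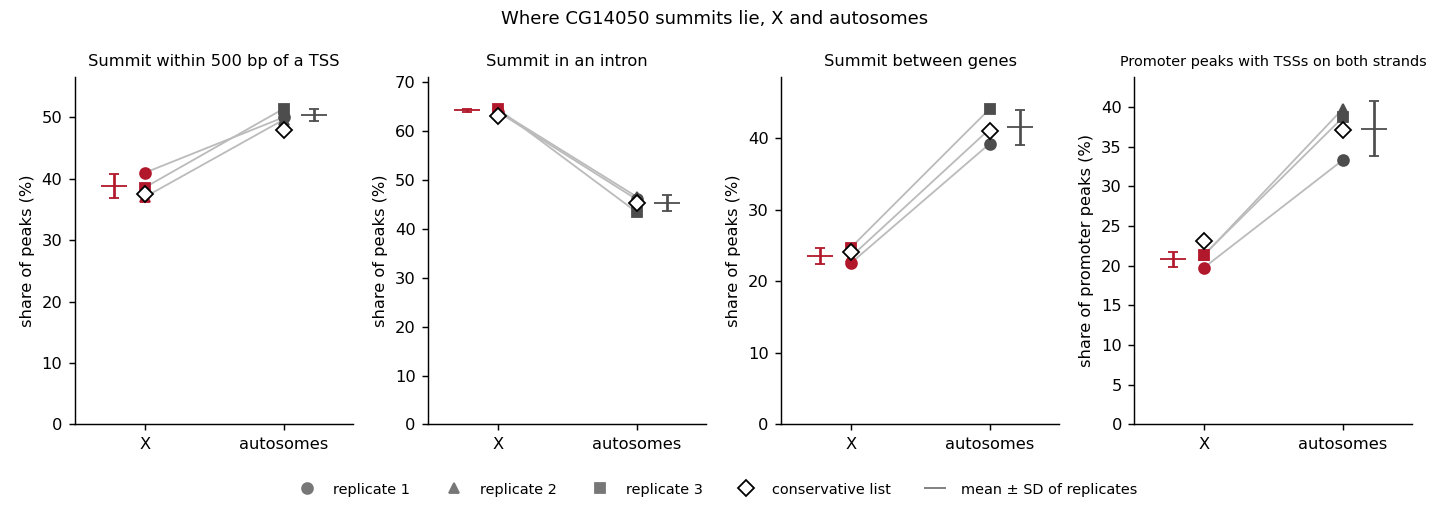
Share of peaks by position of the summit on X (left of each panel, red) and autosomes (right, grey) in the 3 replicate lists, joined by lines, with mean ± SD and the conservative list as open diamonds. In every list X has the lower promoter share (40.9%, 37.0% and 38.5% in the replicates), the higher share in introns, the lower share between genes and the lower share of promoter peaks with start sites on both strands.

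Introns held most X peaks. Of the 691 X summits 436 (63.1%) lay in introns and 167 (24.2%) between genes, while of the autosomal summits 45.4% lay in introns and 41.1% between genes. The difference in introns was 17.7 points (95% Newcombe interval 13.6 to 21.7) and between genes -16.9 points (-20.4 to -13.1). In replicates 1, 2 and 3 the intron share was 64.0%, 64.2% and 64.6% on X, against 46.0%, 46.6% and 43.4% on the autosomes, with a mean difference of 18.9 ± 1.94 points (SD, n = 3; p = 0.25, exact sign-flip permutation test). No large autosomal arm came above 47.5% in the conservative list or 49.5% in a replicate. The chromosomes themselves differ in the same direction but by less: introns make up 46.7% of X and 41.8% of the autosomal bases, and sequence between genes 25.4% and 31.6%. Per Mb of intron, X had 39.6 peaks and autosomes had 27.7, a ratio of 1.43. That ratio was 1.36, 1.49 and 1.53 in the replicates. Ranked regions that did not pass lay in introns in 49.0% of cases on X and 41.8% on autosomes. The remaining classes were small, with 5′ UTR summits at 8.39% on X and 8.15% on autosomes. Coding exons held 3 X summits (0.434%) and 1.25% of autosomal summits, beside 18.4% and 19.7% of the ranked regions that did not pass.

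X promoter peaks faced gene pairs less often than autosomal ones. Start sites of protein-coding genes lay within 500 bp of the summit on both strands at 60 of 259 X promoter peaks (23.2%, exact 95% interval 18.2 to 28.8%) and 499 of 1346 autosomal ones (37.1%, 34.5 to 39.7%). In replicates 1, 2 and 3 the share was 19.8%, 21.3% and 21.4% on X, against 33.3%, 39.8% and 38.7% on autosomes. X was below every large autosomal arm in all 3 replicates, and the mean difference was -16.5 ± 2.56 points (SD, n = 3; p = 0.25, exact sign-flip permutation test). Among all protein-coding genes the gap was smaller: 36.2% of X genes and 37.0% of autosomal genes have a start site on the other strand within 1000 bp. Of the ranked promoter regions that did not pass, 15.3% on X and 11.4% on autosomes faced both strands, with no common direction over the replicates. On X the paired promoter peaks had a lower median signal (142) than the others (171), whereas on autosomes the medians were 149 and 139.

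**Figure D3:**
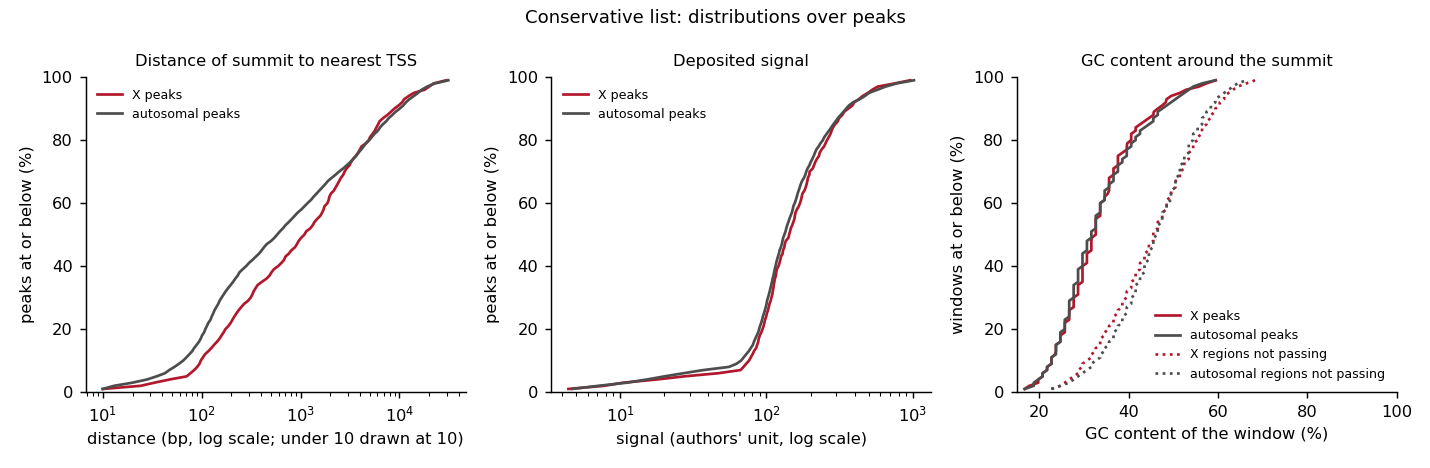
Cumulative share of conservative peaks by distance from summit to nearest protein-coding TSS (log axis), by deposited signal (log axis) and by GC content of 101 bp around the summit, for X (red) and autosomes (grey); dotted lines in the GC panel are ranked regions that did not pass. The X curve for distance runs to the right of the autosomal one up to a few kb, with medians of 1094 and 580 bp, and the curves for signal and GC content of peaks nearly coincide.

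The median X summit lay 1094 bp from the nearest protein-coding TSS and the median autosomal summit 580 bp. The gap is in the near and middle range: 10.9% of X summits and 17.8% of autosomal summits were within 100 bp, and 25.3% of X summits and 19.8% of autosomal summits were 500 to 2000 bp away. Beyond 5 kb the shares were 19.2% on X and 19.8% on autosomes. X summits 100 to 500 bp from a TSS were the strongest class, with a median signal of 173 and 53.3% present in all 3 replicates, against 116 and 34.7% within 100 bp. The first class also ranked above the second on autosomes, with medians of 152 and 130.

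Signals of X peaks were slightly higher. The median was 143 on X (quartiles 101 and 229) and 133 on autosomes (96.1 and 210), a ratio of 1.08. In replicates 1, 2 and 3 the medians were 64.1, 63.8 and 68.5 on X, against 56.1, 60.2 and 66.1 on autosomes. The X median was higher in all 3, by 0.19, 0.08 and 0.05 on the log2 scale, a mean of 0.11 ± 0.07 (SD, n = 3; p = 0.25, exact sign-flip permutation test). Promoter peaks had medians of 157 on X and 143 on autosomes, and other peaks 134 and 126. X peaks were not concentrated at the top of the list: X held 4 of the 25 strongest, 18 of the 100 strongest and 102 of the 500 strongest peaks, beside 19.7% of all peaks on the arms. Among the 351 weakest peaks their share was 15.1%, the lowest of 10 equal classes of signal. That class was also the lowest in replicate 1, at 9.72%, but not in replicates 2 and 3, at 18.5% and 16.7%. Ranked regions that did not pass went the other way, with medians of 26.8 on X and 28.6 on autosomes, and were lower on X in each replicate as well. The number of X copies in the embryos was not measured here, and its part in these levels was not tested.

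The X held more peaks per Mb of arm than the autosomes although it held fewer ranked regions. There were 29.4 peaks per Mb on X and 25.5 on autosomes in the conservative list, a ratio of 1.15. Lengths are those of whole arms, including ends that hold no peak. On 3L the last peak ended at 22879040 of 28110227 bp, and on X at 22833881 of 23542271 bp. Mean distances between neighbouring summits, which leave such ends out, were closer, at 32602 bp on X and 33611 bp on autosomes. The part of these ends in the density ratio was not tested. In replicates 1, 2 and 3 there were 17.3, 21.0 and 19.1 peaks per Mb on X, against 15.8, 17.5 and 16.5 on autosomes, with a mean log2 ratio of 0.20 ± 0.07 (SD, n = 3; p = 0.25, exact sign-flip permutation test). X was denser than each large autosomal arm in the conservative list, where the highest was 27.6 per Mb on 2L, but in replicate 1 2L was denser than X at 17.9. Per 100 protein-coding genes there were 31.5 X peaks and 23.9 autosomal peaks, where X has 93.3 genes per Mb and the autosomes have 106.5. Ranked regions numbered 403 per Mb on X and 487 on autosomes.

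The share of ranked regions that passed was therefore higher on X. Over the whole ranked list 5.52% of 63709 regions are in the conservative list, and the share was 7.29% on X and 5.23% on autosomes, a difference of 2.05 points (95% Newcombe interval 1.51 to 2.62). In the replicates, where 4.35%, 4.99% and 4.86% of all ranked regions passed, the share was 5.22%, 6.75% and 6.53% on X, against 4.20%, 4.71% and 4.60% on autosomes. X exceeded every large autosomal arm in each list, and the mean difference was 1.66 ± 0.563 points (SD, n = 3; p = 0.25, exact sign-flip permutation test). From the values, every X peak of the conservative list reaches an irreproducible discovery rate (IDR) of at most 0.01, a measure of how poorly a region is matched between 2 rankings. Of 694 X ranked regions at that limit, 3 are not in the list and overlap none of its peaks. Just inside it on X were summits at bif with IDRs of 0.00985 and 0.00984 and at CG3108 with 0.00950, and just above the limit were a pair at CG11378 with 0.01001 and 0.01005 and one at shakB with 0.01026. The signals of these 6 ranged from 6.26 to 83.8 and did not separate the sides.

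**Figure D4:**
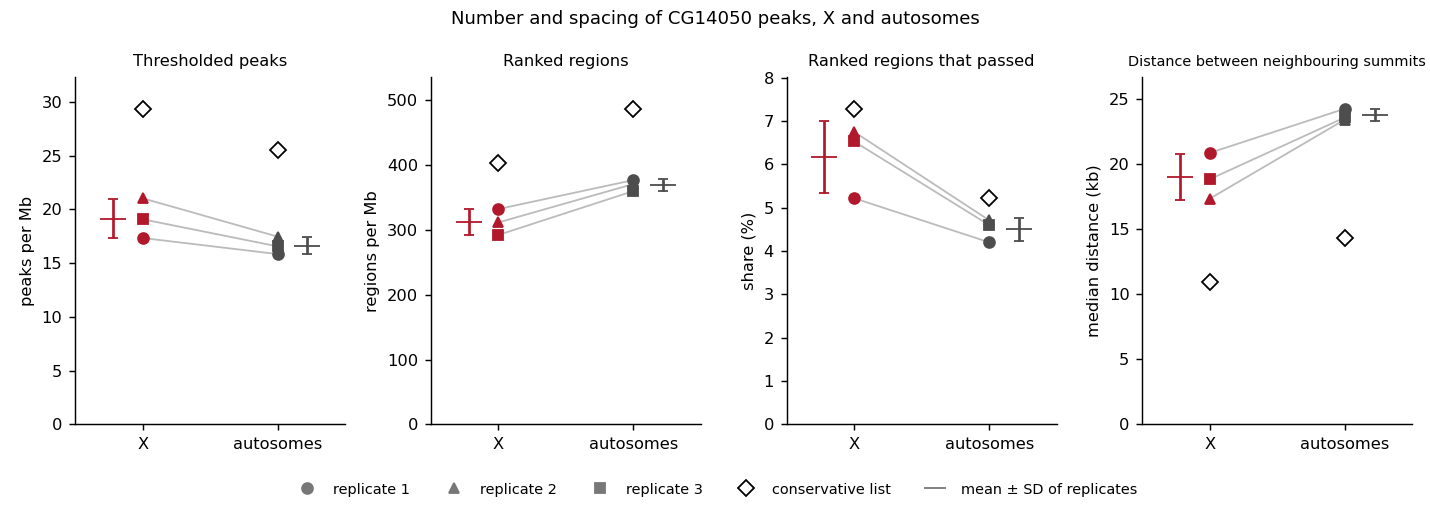
Peaks per Mb, ranked regions per Mb, share of ranked regions that passed and median distance between neighbouring summits on X (left of each panel, red) and autosomes (right, grey) in the 3 replicate lists, joined by lines, with mean ± SD and the conservative list as open diamonds. X has more peaks (17.3, 21.0 and 19.1 per Mb in the replicates), fewer ranked regions, a higher pass rate and shorter distances in every list.

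Neighbouring X summits were closer than autosomal ones. The median distance was 10957 bp on X and 14299 bp on autosomes, a ratio of 0.766. In replicates 1, 2 and 3 it was 20840, 17329 and 18819 bp on X, against 24232, 23400 and 23561 bp on autosomes, with a mean log2 ratio of -0.33 ± 0.11 (SD, n = 3; p = 0.25, exact sign-flip permutation test). In replicate 1 the arm 2L had a shorter median than X, at 19416 bp. Mean distances differed less, at 32602 bp on X and 33611 bp on autosomes. Of X peaks 40.1% had another within 2 kb, against 32.3% of autosomal peaks. In the replicates this share was 26.5%, 31.3% and 29.0% on X, against 19.004%, 17.3% and 17.9% on autosomes.

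Part of the closest spacing comes from deposited peaks that overlap each other. Of X peaks 86 (12.4%) and of autosomal peaks 446 (15.9%) overlap another peak of the list, and the weaker members have median signals of 10.9 on X and 15.3 on autosomes. The shortest distance between X summits was 199 bp, shared by 8 pairs. The first 5 of these along the arm are at ph-d, Fas2, CG42240, CG15312 and Vlet. At ph-d, a second Polycomb group gene beside ph-p, the pair had signals of 284 and 57.5, and both overlap a peak in each replicate list. An overlap of 1 bp was enough, so the same replicate peak may count for both. Counting overlapping peaks as 1 left 647 on X and 2584 on autosomes, with median distances of 12916.5 bp on X and 16817 bp on autosomes, so that the ratio was 0.768.

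X peaks were spread unevenly along the arm. The most in 1 Mb were 57, in both the 2 to 3 Mb and the 6 to 7 Mb windows, where 11.3% and 11.1% of ranked regions passed. The first of these windows includes ph-p, ph-d, Raf, CG14050 and Ugalt. At the other end, the 22 to 23 Mb window held 1 peak and the final one none, out of 121 and 73 ranked regions. The longest gap, 1239655 bp between summits near GCS2alpha and CG42346, falls there and spans 47 protein-coding genes and 136 ranked regions. The next longest were 282259 bp before Mgstl and 271682 bp before sw.

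Several genes had runs of X peaks. The 691 peaks shared 427 nearest genes, of which 135 (31.6%) were nearest to 2 or more and 29 to 4 or more, and on autosomes 25.9% were nearest to 2 or more. With overlapping peaks counted as 1 the shares with 2 or more were 28.3% on X and 20.5% on autosomes. CHES-1-like had the most, with 13 peaks between 7690778 and 7709179, of which 2 were promoter peaks and 6 were in all 3 replicates, with signals from 8.14 to 620.9. Raf and Hr4 had 8 each, none of them at a promoter. Tlk and dnc had 7 each. The dnc gene encodes a cAMP phosphodiesterase, and 5 of its peaks were promoter peaks, whereas none of those at Tlk was. Moe (moesin, which links actin to the membrane) had 6, of which 4 were promoter peaks, and sog (an extracellular antagonist of Dpp signalling) had 5, of which none was.

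X peaks recurred in the replicate lists about as often as autosomal ones. In all 3 lists were 300 X peaks (43.4%, exact 95% interval 39.7 to 47.2%) and 39.9% of autosomal peaks, a difference of 3.50 points whose 95% Newcombe interval, -0.58 to 7.63, spans 0. Found in 0 lists were 118 X peaks (17.1%) and 19.03% of autosomal peaks. Overlap of 1 bp was enough. Replicate 1 contained 55.6% of X peaks, replicate 2 67.3% and replicate 3 64.8%. By identical rows, the comparison behind the conservative list used regions of replicates 2 and 3 and none of replicate 1. Of the regions compared, 63.4% were identical to one of replicate 2 and 66.2% to one of replicate 3. The deposited description, however, derives the list from the alignments of all 3 replicates, so replicate 1 cannot be taken as held out of it. In replicate 1 the share was 55.6% on X and 53.4% on autosomes, with an interval of the difference from -1.98 to 6.28 points.

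**Figure D5:**
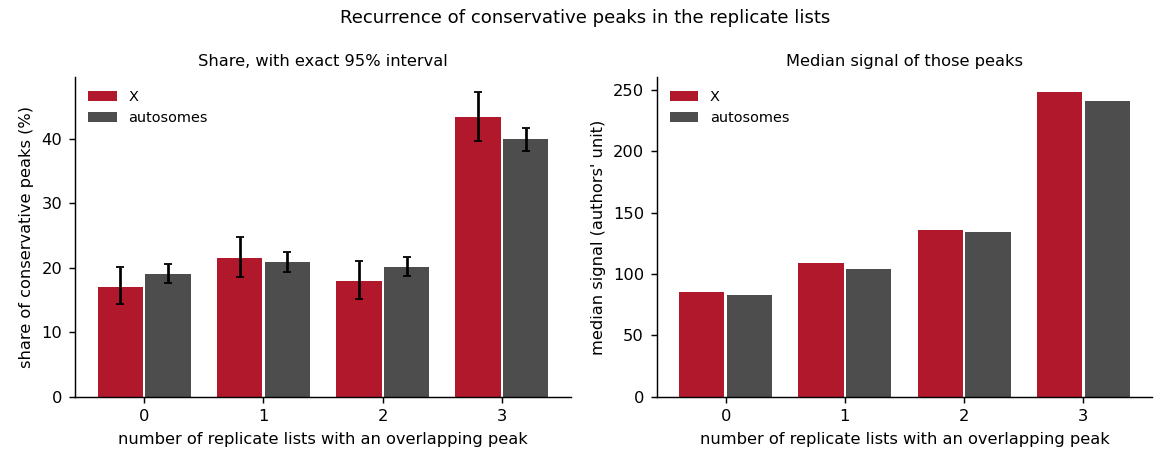
Share of conservative peaks on X (red, left of each pair) and autosomes (grey) that overlap a peak in 0, 1, 2 or 3 replicate lists, with exact 95% intervals (left), and the median signal of those peaks (right). Of X peaks 43.4% are in all 3 lists, and median signal goes up with the number of lists on both.

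Strong X peaks recurred more. X peaks in all 3 lists had a median signal of 248 and those in none had 85.7. Both quantities come from the same alignments, so this is a description of the lists. Among the 300 X peaks present in all 3, signals ranked alike between replicates, with Spearman's rho of 0.792, 0.815 and 0.796 across peaks for the 3 pairs. Across autosomal peaks rho was 0.774, 0.809 and 0.801. Peaks of a list are not independent, and no p is given. Promoter peaks made up 41.3% of recurrent X peaks and 54.1% of recurrent autosomal peaks. The strongest X peaks in no replicate list were intronic at mew and if, which encode integrin alpha subunits, and at kirre, an adhesion protein of muscle founder cells, together with promoter peaks between CG32590 and Flo2 and at RpL7A. Their signals ranged from 122 to 135.

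Most X genes for cytosolic ribosomal proteins had a promoter peak of moderate height. Of all 2196 protein-coding X genes 293 (13.3%) had a conservative summit within 500 bp of a TSS, beside 14.3% over all arms and 14.5% on autosomes. Of the 15 X genes for cytosolic ribosomal proteins 11 had one. Their summits lay 4 to 100 bp from the TSS, with signals of 66.2 to 280, well below the strongest X peaks. RpS28b had the highest signal of these, 280, with replicate signals of 83.0, 101 and 110. RpL22 had 221, RpL17 185, RpS15Aa 168, RpS5a 146, RpS19a 133, RpL7A 124, RpL36 108, sta 105 and RpL37-1 66.2. RpS14b had 152, from a summit that lies between it and RpS14a, a near-identical tandem copy whose reads may not be told apart. Only 4 of the 11 were in all 3 replicate lists, and RpL7A and sta were in none. The others, RpL35, RpS6, RpS10b and RpS14a, had no summit that close. None of the 11 X genes for mitochondrial ribosomal proteins had a promoter peak, too few genes to set against the 13.3%.

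Genes that sense or compensate X dose had a promoter peak at 1 of 8, beside 13.3% of all protein-coding X genes. The roX genes are noncoding and fall outside that share, and counts this small cannot be told apart from it. None of the 3 dosage compensation genes had one: the nearest summits were 5947 bp from lncRNA:roX1, 1392 bp from lncRNA:roX2, and 3754 bp from mof, which encodes the acetyltransferase of the complex. Of the 5 genes of sex determination, only Sxl, the master switch read from X dose, had one. That summit lay 422 bp from a TSS in an intron, with a signal of 154 and replicate signals of 49.7, 41.8 and 62.8. The sensors sisA, sc, run and upd1 had none, at distances of 4167 to 57700 bp. No gene of the achaete-scute complex, which includes sc, had one, of 4, again too few to set against the 13.3%.

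Of 7 chromatin genes, too few to set against the 13.3% of all protein-coding X genes, ph-p and mxc, another Polycomb group gene, had a promoter peak. The mxc summit faced Larp7 on the other strand and had a signal of 99.1, found in replicate 3 alone. The nearest summit to ph-d was 798 bp from its TSS. Of 17 patterning and signalling genes, sgg and N had a promoter peak. The sgg gene encodes the kinase GSK3 of Wnt signalling, and its summit, at an internal start site, had a signal of 490 and replicate signals of 127, 183 and 180. The N gene encodes the Notch receptor, and its summit had a signal of 88.4 and was in no replicate list. The count of 2 in 17 is close to the 13.3% of all X genes.

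Bases around X summits were as rich in A and T as those around autosomal summits. Mean GC content of the 101 bp windows was 33.4% on X and 33.5% on autosomes for conservative peaks, and 45.4% and 45.8% for ranked regions that did not pass. In the replicates the mean over X peaks was 33.0%, 32.6% and 33.2%, against 33.6%, 32.1% and 32.8% over autosomal peaks. The arms as a whole have 42.5% on X and 42.1% on autosomes. Peaks on both are thus poorer in GC than their chromosomes, and regions that did not pass are richer.

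Of 6 words searched on both strands, TATAAA was the most frequent at X summits. It was in 153 of 691 X windows (22.1%), in 23.2% of autosomal windows, in 8.37% of X regions that did not pass and in 11.0% of all 101 bp tiles of X. Within a GC content of 25 to 40% these shares were 22.4%, 23.5%, 16.6% and 17.9%, so the excess was smaller in that range. The range kept 419 of the 691 X windows, and GC content was not matched within it. ACAGTG was in 9.12% of X windows, 7.51% of autosomal windows, 5.08% of X regions that did not pass and 3.89% of X tiles. Within the same GC range its shares were 8.83%, 7.14%, 5.12% and 3.48%.

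The other 4 words were rare. TATCGATA, bound by DREF, was in 1.16% of X windows, with 7 of its 8 at promoters, and in 1.46% of autosomal windows. AGNTGGCGC, part of the CTCF motif, was in 1.59% of X windows and 1.28% of autosomal windows, beside 0.648% of X regions that did not pass and 0.346% of X tiles. Among peaks in all 3 replicates, each of these 2 words was in 1 of 300 X windows. On autosomes they were in 16 and 12 of 1122. GAGAGAGA, bound by GAGA factor, was in 0.434% of X windows and 0.462% of autosomal windows, beside 0.932% of X regions that did not pass and 0.783% of X tiles. CACACACA was in 1.16% of X windows and 0.961% of autosomal windows, beside 3.79% of X regions that did not pass. It was in 3.02% of X tiles and 1.90% of autosomal tiles. A match is a string in a window and is not evidence that a factor binds there.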

How the data were processed

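Peaks were called by the authors, who deposited lists in the narrowPeak layout with a signal per peak. Their ranked lists add a −log10 value of the global IDR per region, as deposited, and the signals of the matched peaks, used only to match rows. Coordinates are on dm6, per the labels. No source used here names the read aligner or caller, or says how the control library entered the calls; that control was not analysed here. The signal's scale is unknown, so it was compared within a list only. Read depth was not used, and the 49504, 48710 and 46992 ranked regions of replicates 1, 2 and 3 do not measure it. From the values, every region of the conservative list is in a ranked list of 63709. No peak end passed the reference length (0 ends on each arm).

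Summits were set against Ensembl BDGP6.54 genes and the RefSeq Release 6 sequence with Python 3 scripts. Promoters were within 500 bp of a protein-coding TSS; a summit in several classes took the first of 5′ UTR, coding exon, 3′ UTR, noncoding exon and intron. X-minus-autosome values were tested over 3 replicates by exact sign-flip permutation. Calls, overlaps and the test were tested on simulated data. Named peaks were the 25 strongest in all replicates, the 5 strongest far from a TSS, the 5 strongest in no replicate, the 5 closest pairs, the 3 longest gaps, the 3 nearest either side of the threshold and list genes with a promoter peak. Some named peaks are not reported here. Genes with the most peaks were also named, after their values were seen. The members, lists and words were chosen with earlier results of these data known. Intervals and floors cover counting error only.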

Additional observations from a re-analysis of the deposited data

Results flagged for a closer look

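The conservative list holds 13 peaks outside the 6 chromosome arms that the comparisons did not use. All 13 lie on scaffolds that the deposited names assign to X, with signals of 11.6 to 143. The corresponding ranked list has 236 regions on X scaffolds, 234 on unplaced scaffolds and 50 on Y, and none of the regions on unplaced scaffolds or Y passed. Beside the 13 of 236 on X scaffolds, 5.52% of the whole ranked list and 7.29% of regions on the X arm passed. Replicates 2 and 3 had 12 and 7 peaks on X scaffolds in their thresholded lists, and replicate 1 had none listed. No control library was analysed here, and the number of copies of these sequences in the embryos was not measured, so its part in these peaks was not tested.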

How the results depend on the processing

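Of 110 alternative values, 0 changed sign. Of the 61 from a single list, 55 stayed within a set limit and 6 moved further. That limit was the SD between replicates, except for the 12 values of recurrence. Recurrence has no spread between replicates, and all 12 fell inside its 95% Newcombe interval over peaks, which is wide and spans 0. The remaining 49 of the 110 are means over replicates, whose test could not pass its threshold under any setting, so they show direction only. Among them the log2 density ratio was 0.39 per protein-coding gene and that of spacing -0.08 with mean distances. In the conservative list unless another is named, the moved values were these. The promoter difference was -7.98 points in the list that, by identical rows, compares replicates 1 and 3. The log2 density ratio was 0.40 per protein-coding gene. The pass-rate difference was 1.45 points in each of the lists that compare replicates 1 with 2 and 1 with 3, and 8.69 in the list that matches no replicate, whose ranked list is shorter. The log2 ratio of spacing was -0.044 with mean distances. Without each replicate in turn, mean differences ranged from -12.7 to -10.8 points for promoters, 17.8 to 19.6 for introns and 1.47 to 1.99 for pass rate, and log2 ratios from 0.17 to 0.24 for density, 0.07 to 0.14 for signal and -0.38 to -0.27 for spacing. Recurrence in both of the 2 lists left, another quantity than recurrence in 3, differed by 2.01 to 3.30 points. The signal ratio was lowest without replicate 1, at 0.07 against 0.11 with all 3. Counting overlapping peaks as 1, leaving out the locus of CG14050, and all alternatives for introns were chosen after seeing the data. Summits sit at the peak midpoint in 77.0% of X peaks and 82.4% of autosomal peaks, which limits how finely distances are resolved. Peaks within a list are not independent, and the 3 replicates limit every p-value.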
